A study of Mus musculus with 8 samples.

Results

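The genes described are 8 chemokine receptors, Ccr6, Ccr1, Ccr2, Ccr7, Ccr8, Cxcr3, Cxcr4 and Cxcr6, of 47729 genes listed for γδ T cells sorted from mouse visceral fat. They were picked by symbol, with their values on the 2 diets already known, so that their diet differences are a description and serve as no test. Transcripts were measured by sequencing of polyA RNA. KD samples (4) came from C57BL/6 mice fed a ketogenic diet, which is low in carbohydrate and high in fat, and chow samples (4) from C57BL/6 mice fed control chow, both for 1 week. No transgene, deletion or further treatment is named for either diet. Whether a sample is 1 mouse or a pool, and the age of the mice, are not given in the sources used here, so that the spread between samples may in part be technical.

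Chemokine receptors are G protein-coupled receptors that steer leukocytes along gradients of small secreted ligands, the chemokines. After ligand binding, Gi proteins and Rac and Rap GTPases drive actin assembly and integrin adhesion, and arrestins, receptor kinases and RGS proteins end the signal. In mouse γδ T cells, CCR6, the receptor for CCL20, marks cells that make IL-17, whereas CXCR3, the receptor for CXCL9 and CXCL10 and a target of the transcription factor T-bet, is typical of cells that make interferon-γ.

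Library totals ran from 19796112 to 26572315 counts in KD and from 23940797 to 31926427 in chow, and 13397 genes passed the filter on low counts, all 8 receptors among them. The δ chain gene Trdc stood at 4302 ± 326 CPM in KD and 4087 ± 96.6 CPM in chow (CPM, counts scaled to the library total, SD, n = 4 each). Cd4 was listed at 0 in all 8 libraries. Markers of stromal and mesothelial cells were more abundant in most KD libraries, with 9 of 10 higher on average in KD and summed levels of 20.8 to 478 CPM in KD and 0.627 to 175 CPM in chow. In such bulk samples, fewer cells of a type and less RNA per cell cannot be told apart.

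Ccr6 is transcribed from more than 1 start in RefSeq, and the sequences around both of its starts are shown because Ccr6 differed most clearly between the diets. That of Cxcr3 is shown because it was the receptor whose KD and chow samples separated in the other direction. Each runs 5′ to 3′ on the gene's strand from 250 bases before the start to 50 bases after it (RefSeq, GRCm38.p6). They lie at chr17:8235793-8236092 and chr17:8242276-8242575 on the plus strand and at chrX:101734098-101734397 on the minus strand. Capitals mark the nuclear receptor half-site AGGTCA on either strand.
Ccr6, upstream start: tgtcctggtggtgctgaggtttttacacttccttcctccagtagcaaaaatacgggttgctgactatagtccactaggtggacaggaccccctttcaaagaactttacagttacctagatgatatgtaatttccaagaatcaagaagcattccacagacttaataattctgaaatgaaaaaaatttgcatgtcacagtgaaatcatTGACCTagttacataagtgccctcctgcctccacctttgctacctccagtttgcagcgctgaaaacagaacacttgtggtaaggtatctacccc
Ccr6, downstream start: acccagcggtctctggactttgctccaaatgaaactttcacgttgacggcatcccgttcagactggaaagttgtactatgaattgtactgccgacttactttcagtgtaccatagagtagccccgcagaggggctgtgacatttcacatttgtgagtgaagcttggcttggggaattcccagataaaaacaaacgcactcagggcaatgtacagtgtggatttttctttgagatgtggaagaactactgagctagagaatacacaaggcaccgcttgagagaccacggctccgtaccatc
Cxcr3: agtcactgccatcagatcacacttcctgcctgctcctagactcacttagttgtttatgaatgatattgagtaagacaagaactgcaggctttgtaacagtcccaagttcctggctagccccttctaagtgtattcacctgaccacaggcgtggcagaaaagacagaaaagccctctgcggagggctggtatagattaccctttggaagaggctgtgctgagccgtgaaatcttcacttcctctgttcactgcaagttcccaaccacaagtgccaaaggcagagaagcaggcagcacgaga
The half-site occurred once in these windows, on the opposite strand 44 bases before the upstream start of Ccr6. It also occurs in 16.3% of all 32851 windows of this length in the table. The T-box sequence AGGTGTGA (1.28% of all windows) and the KLF sequence GGGTGTGG (3.56%), searched on both strands, were found in none of the windows of the 7 receptors that the table holds. The letters alone do not show binding. The 2 Ccr6 windows had a GC content of 42.3% and 47.7% and held 2 and 10 CpG dinucleotides, and that of Cxcr3 had a GC content of 49.3% and held 4, against medians of 52.7% and 7 over all windows.

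Compared per length, Cxcr6, Ccr2 and Cxcr3 made up most of the receptor RNA, and Ccr8 and Ccr1 were at the low end on both diets. The highest on the FPKM scale (fragments scaled to transcript length and library total) was Cxcr6, the receptor for CXCL16 found on tissue T cells, at 1879 ± 137 FPKM in KD and 1860 ± 144 FPKM in chow (SD, n = 4 each). Ccr2, the CCL2 receptor of monocytes and effector T cells, followed at 510 ± 33.2 FPKM in KD and 502 ± 20.4 FPKM in chow. Cxcr3 was the next at 202 ± 27.5 FPKM in KD and 261 ± 29.2 FPKM in chow. The ranges of these 3 receptors over the 4 samples of a diet overlapped neither with each other nor with those of any receptor below them. Ccr6 was the fourth in KD at 56.5 ± 20.4 FPKM and the fifth in chow at 16.3 ± 2.97 FPKM, and the order was the other way round for Cxcr4, the CXCL12 receptor, at 38.8 ± 9.76 FPKM in KD and 35.1 ± 3.26 FPKM in chow. In KD the ranges of Ccr6 and Cxcr4 overlapped (44.5 to 87.0 and 27.9 to 48.7 FPKM), whereas in chow they did not (13.2 to 19.1 and 31.3 to 39.0 FPKM). Ccr7, the receptor for CCL19 and CCL21 that leads cells to lymph nodes, had 20.5 ± 8.60 FPKM in KD and 12.2 ± 3.72 FPKM in chow. Its range overlapped that of Cxcr4 in KD and those of Ccr6 and Ccr8 in chow. Ccr8, the CCL1 receptor, and Ccr1, a receptor for CCL3 and CCL5, came last. Ccr8 had 6.22 ± 2.03 FPKM in KD and 9.95 ± 2.99 FPKM in chow, and Ccr1 had 4.46 ± 2.13 FPKM in KD and 0.590 ± 0.764 FPKM in chow.

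**Figure D1:**
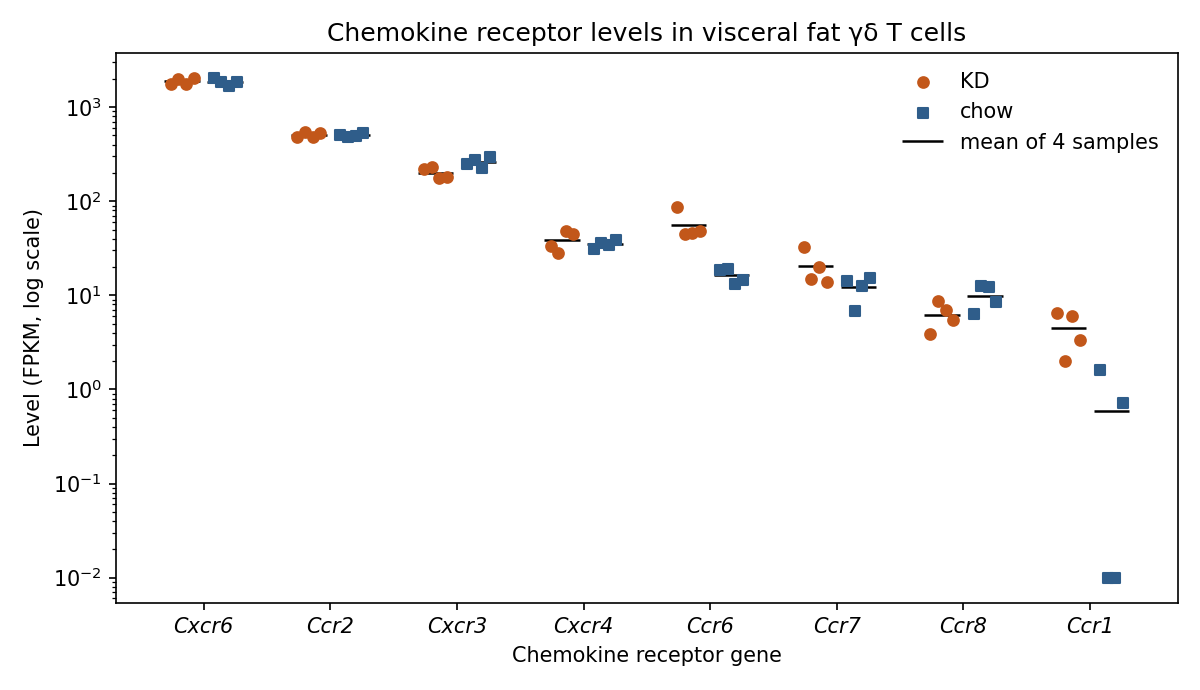
Level of each receptor in FPKM on a log scale, for the 4 KD samples (circles, left) and the 4 chow samples (squares, right), with a line at the mean. Cxcr6, Ccr2 and Cxcr3 stand above the other 5 receptors in every sample, and Ccr1 reaches 0.01 FPKM in 2 chow samples.

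Ccr6 was higher in every KD sample than in any chow sample. On the CPM scale it had 113, 56.4, 59.8 and 65.9 CPM in KD replicates 1 to 4 and 25.1, 26.2, 17.7 and 20.004 CPM in chow replicates 1 to 4. The KD mean was 3.32 times the chow mean (73.9 ± 26.7 CPM in KD and 22.2 ± 4.05 CPM in chow). KD replicate 1 was well above the other 3, and the groups did not overlap. In the fit across all genes with edgeR's quasi-likelihood test the log2 fold change was 1.73 (SE 0.24, adjusted p = 0.0177), which ranked Ccr6 at place 21 by p. Over 19 alternative settings its adjusted p ran from 4.36e-09 to 0.169. The call was lost without KD replicate 4 (log2 fold change 1.78, adjusted p = 0.0538), chow replicate 3 (1.64, adjusted p = 0.0737) or chow replicate 4 (1.69, adjusted p = 0.088), and kept in the other 5 fits that leave out 1 sample. Counting alone would give a coefficient of variation of 2.48% in KD and 4.03% in chow, whereas the observed ones were 36.1% in KD and 18.2% in chow.

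B cells also express Ccr6, and KD replicate 1 held the most RNA of some B cell markers. There Cd79a, a chain of the B cell receptor, was at 4.38 CPM, and in the other KD samples it was at no more than 1.01 CPM. In chow it was at no more than 2.24 CPM, and Ms4a1, which encodes CD20, reached 6.60 CPM in replicate 3, the sample with the least Ccr6. Of the 7 B cell markers, 4 were higher on average in KD. Their summed level was 59.2 to 89.2 CPM in KD and 31.8 to 46.9 CPM in chow, most of it Cd79b (58.1 to 79.5 CPM in KD and 22.1 to 46.8 CPM in chow). Cd79b did not overlap between the diets (log2 fold change 1.11, adjusted p = 0.0845 by edgeR). DESeq2 and both limma fits called Cd79b higher in KD. With the mean log2 CPM of the B cell markers as a covariate the log2 fold change of Ccr6 was 1.69 (adjusted p = 0.0308 by edgeR). That mean overlapped between the diets, at -1.54 to 0.544 in KD and -2.02 to 0.00383 in chow. The covariate therefore did not carry the higher sum in KD. Leaving out KD replicate 1 gave Ccr6 a log2 fold change of 1.45 (adjusted p = 0.0242 by edgeR). Stromal markers were, like Ccr6, more abundant in KD, although KD replicate 1, with the most Ccr6, had the lowest stromal sum in KD (20.8 CPM). With the mean log2 CPM of the stromal markers as a covariate the log2 fold change of Ccr6 was 2.36 (adjusted p = 0.0159 by edgeR). The part of B cells and of stromal cells in the level of Ccr6 was not tested beyond these values.

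The deposited counts and FPKM together give the mean effective length of the Ccr6 transcripts that reads were assigned to. This length was 1314, 1276, 1297 and 1353 bases in KD replicates 1 to 4 and 1345, 1403, 1335 and 1354 bases in chow replicates 1 to 4. The groups overlapped, and the gene has 9 annotated transcripts. Cxcr3, which has 1, gave 1656 bases in every sample. Ccr6 spans chr17:8236043-8257141 on the plus strand (GENCODE release M21, GRCm38), and no base of its exons belongs to another gene.

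**Figure D2:**
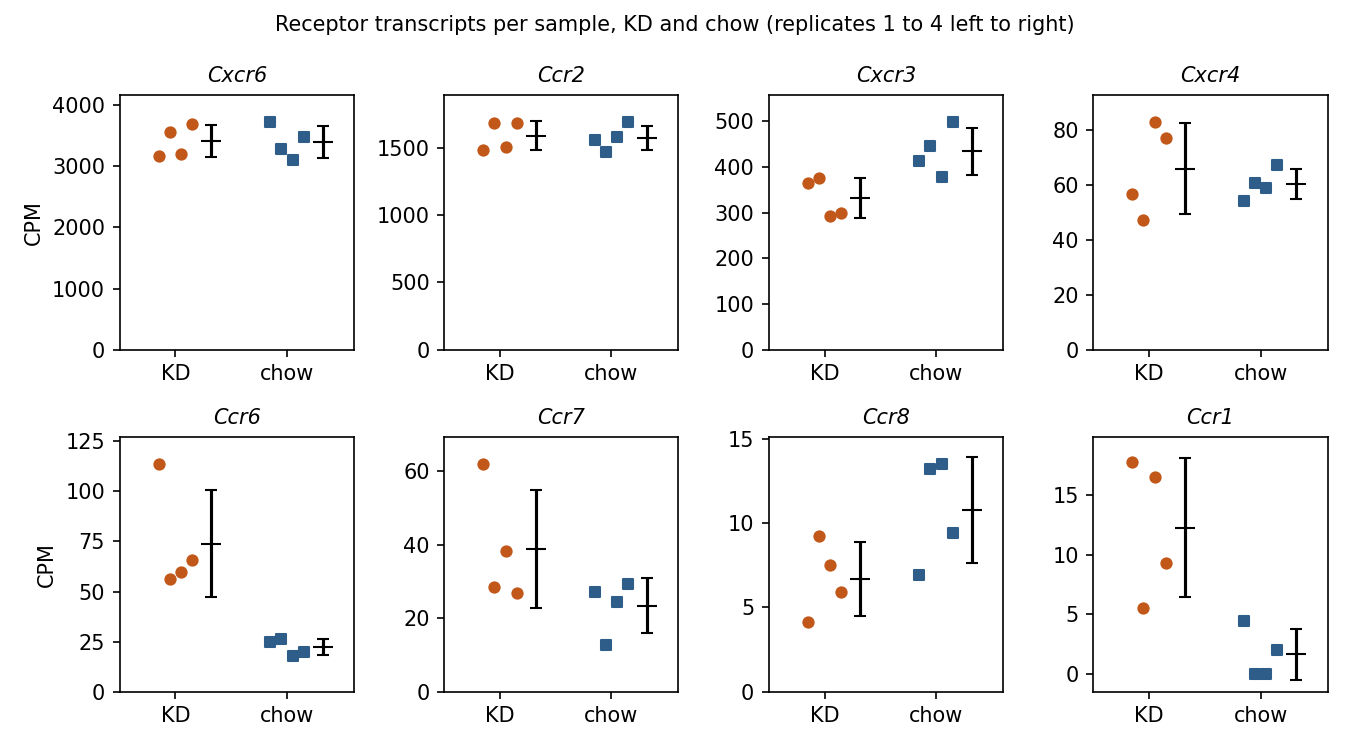
Level of each receptor in CPM in every sample, KD (circles) left of chow (squares), with the mean and SD beside the points. Ccr6 and Ccr1 are higher in all 4 KD samples than in any chow sample, Cxcr3 is lower in all 4, and the other receptors overlap.

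Ccr1 had 17.7, 5.50, 16.4 and 9.30 CPM in KD replicates 1 to 4 and 4.47, 0.0374, 0.0316 and 2.02 CPM in chow replicates 1 to 4. Chow replicates 2 and 3 held 1 count each, and the groups did not overlap. The log2 fold change was 2.90 with an SE of 1.17 (adjusted p = 0.516), so that the spread between chow samples was large against the difference. Ccr1 is also a gene of monocytes and macrophages, and values of their markers stand beside it here. In KD replicate 1, the sample with the most Ccr1, the macrophage gene Adgre1 was at 0, the receptor gene Csf1r at 0.143 CPM and the lysozyme gene Lyz2 at 1.86 CPM. Lyz2 was highest in chow replicate 4 at 82.5 CPM, where Ccr1 was at 2.02 CPM. Of the 10 macrophage and monocyte markers 7 were higher on average in KD, and their summed level was 395 to 539 CPM in KD and 426 to 680 CPM in chow. Most of that sum was Ly6c2 (355 to 536 CPM in KD and 418 to 590 CPM in chow), which T cells express too. Their part in the level of Ccr1 was not tested.

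Ccr7 had 61.9, 28.5, 38.3 and 26.8 CPM in KD replicates 1 to 4 and 27.2, 12.8, 24.3 and 29.5 CPM in chow replicates 1 to 4. KD replicate 1 was again the highest and chow replicate 2 the lowest, and the other 6 samples lay between 24.3 and 38.3 CPM on both diets. The log2 fold change was 0.73 (SE 0.32, adjusted p = 0.564), and 0.42 without KD replicate 1. Mature dendritic cells express Ccr7 strongly, and 3 of the 7 dendritic cell markers (Clec9a, Ccl22 and Siglech) were at 0 in all 8 libraries. Of the 7, 1 was higher on average in KD, and their summed level was 30.1 to 46.9 CPM in KD and 28.7 to 39.4 CPM in chow, most of it Xcr1. Itgax was at 3.48 to 7.72 CPM in KD and 1.59 to 14.3 CPM in chow. Zbtb46 was at 0.333 to 2.77 CPM in KD and 0.0748 to 6.14 CPM in chow. The part of dendritic cells in the level of Ccr7 was not tested.

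Cxcr3 was lower in every KD sample than in any chow sample. It had 364, 377, 292 and 299 CPM in KD replicates 1 to 4 and 414, 446, 378 and 498 CPM in chow replicates 1 to 4. The groups were only just apart, since KD replicate 2 lay next to chow replicate 3. The log2 fold change was -0.38 (SE 0.11), which did not pass over all genes in edgeR's test (adjusted p = 0.286) but did in DESeq2 (adjusted p = 0.0452), which called 3.04% of the 15470 genes it gave an adjusted p, and over the 19 alternatives the adjusted p ran to 0.833. Ccr8 had 4.14, 9.24, 7.52 and 5.92 CPM in KD replicates 1 to 4 and 6.94, 13.2, 13.5 and 9.44 CPM in chow replicates 1 to 4. Its groups overlapped, and KD minus chow was -0.68 on the log2 scale (SE 0.35, adjusted p = 0.634). Regulatory T cells of tissues also express Ccr8, and their transcription factor gene Foxp3 was at no more than 0.505 CPM in KD and 0.418 CPM in chow. Trac, which encodes the constant part of the T cell receptor α chain, stood higher, at 106 ± 17.1 CPM in KD and 74.3 ± 16.5 CPM in chow (log2 fold change 0.51, SE 0.18, unadjusted p = 0.0168 and adjusted p = 0.41 by edgeR). Cd4, in contrast, was at 0 in all 8 libraries. Cd8a and Cd8b1 reached at most 0.884 and 1.61 CPM, both in chow replicate 3. Which cells the Trac RNA came from was not tested. Of the 5 markers of αβ and regulatory T cells, 1 was higher on average in KD. Their summed level, nearly all Trac, was 87.4 to 128 CPM in KD and 54.5 to 89.6 CPM in chow. Their part in the receptor levels was not tested.

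The most abundant receptors were the steadiest. Cxcr6 had 3172, 3564, 3203 and 3688 CPM in KD replicates 1 to 4 and 3714, 3283, 3097 and 3472 CPM in chow replicates 1 to 4, with a log2 fold change of 0.01 (SE 0.08). Ccr2 had 1482, 1684, 1504 and 1683 CPM in KD and 1552, 1464, 1577 and 1687 CPM in chow in the same order, with a log2 fold change of 0.02 (SE 0.07). For both genes the groups overlapped almost fully, and the sign of these small values turned with several settings. Their coefficients of variation were 7.59% and 6.93% in KD and 7.79% and 5.84% in chow. Ccr2 was the only receptor of the 8 that shared sequence with others. Of its 6758 distinct 50-base windows, 129 (1.91%) also occur in transcripts of other genes, and its estimated counts were not whole.

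Cxcr4 had 56.8, 47.4, 82.8 and 77.0 CPM in KD replicates 1 to 4 and 54.2, 60.7, 58.9 and 67.4 CPM in chow replicates 1 to 4. KD replicates 3 and 4 were the highest and KD replicate 2 the lowest of all samples, so that chow lay inside the range of KD. The log2 fold change was 0.13 (SE 0.18, adjusted p = 0.922), and -0.21 without KD replicates 3 and 4. The same 2 samples held the most RNA of endothelial markers, a cell type that also expresses Cxcr4. All 6 endothelial markers were higher on average in KD, and their summed level was 48.6, 56.6, 160 and 178 CPM in KD replicates 1 to 4 and 103, 56.6, 52.8 and 44.5 CPM in chow replicates 1 to 4. Pecam1, which T cells express too, carried most of it (45.0 to 121 CPM in KD and 39.6 to 72.8 CPM in chow). Their part in the level of Cxcr4 was not tested.

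Across the 8 receptors, 1 (Ccr6) was called higher in KD and 0 lower at an adjusted p under 0.05, where 0.508% of all 13397 tested genes were called, 0.328% higher and 0.179% lower. At an unadjusted p under 0.05 there were 3 higher and 1 lower, against 8.63% of all genes in both directions together. The diets did not overlap for 2 receptors higher in KD (Ccr6 and Ccr1) and 1 lower (Cxcr3), where 3.23% of all genes were separated upwards and 2.79% downwards (6.02% together). Since the receptors were chosen with this comparison known, nothing is read from these counts. The adjusted p of the 7 receptors not called ran from 0.286 to 0.993, and the median log2 fold change of the 8 was 0.073, against 0.0034 over all tested genes.

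Because Cxcr6 and Ccr2 dominate, the make-up of receptor RNA per length was much the same on both diets. Cxcr6 made up 69.1% ± 1.54 of the summed FPKM of the 8 receptors in KD and 68.9% ± 1.69 in chow, and Ccr2 made up 18.8% ± 0.425 in KD and 18.7% ± 1.16 in chow (SD, n = 4 each). The share of Cxcr3 was 7.43% ± 1.003 in KD and 9.68% ± 0.914 in chow. Ccr6 contributed 2.10% ± 0.820 in KD and 0.604% ± 0.0939 in chow. Per sample, its share was 3.32%, 1.57%, 1.81% and 1.70% in KD replicates 1 to 4 and 0.651%, 0.713%, 0.529% and 0.522% in chow replicates 1 to 4, so that the diets did not overlap on this scale either.

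**Figure D3:**
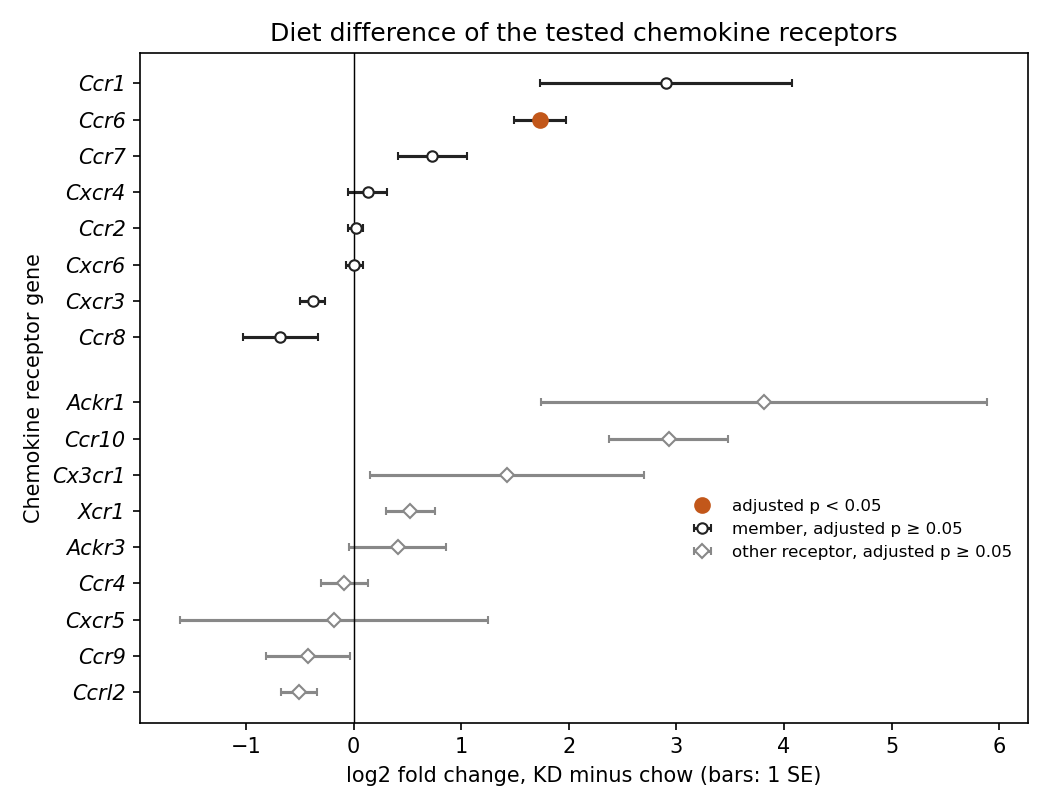
Log2 fold change, KD minus chow, with bars of 1 SE, for the 8 receptors described (circles) and 9 other chemokine receptors that were tested (diamonds). Ccr6 is the filled point, with an adjusted p under 0.05, and Ccr1, Ccr10 and Ackr1 have larger values without passing.

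Of the 16 other genes for classical and atypical chemokine receptors, 10 were tested and 0 were called by edgeR, with 4 at an unadjusted p under 0.05, where 8.63% of all tested genes had such a p. DESeq2 and limma on log2 FPKM each called 1, which was Ccr10. Over all genes DESeq2 called 3.04%, and limma called 1.15% with 1 added to the FPKM and 1.03% with 0.1 added. Ccr10, the CCL27 and CCL28 receptor of skin and mucosal lymphocytes, had 36.9, 35.6, 15.8 and 20.7 CPM in KD replicates 1 to 4 and 1.96, 8.23, 2.59 and 1.56 CPM in chow replicates 1 to 4. Every KD sample was above every chow sample. The diet difference on the log2 scale was 2.93 (SE 0.55, adjusted p = 0.0564 in edgeR and 9.39e-06 in DESeq2), and edgeR called it without chow replicate 2 (3.74, adjusted p = 0.0149). Its adjusted p reached 0.279 over the 19 alternatives. Ccrl2, an atypical receptor that presents chemerin, had 31.7 ± 2.64 CPM in KD and 45.3 ± 8.93 CPM in chow (log2 fold change -0.51, adjusted p = 0.369). Xcr1, the XCL1 receptor, had 29.9 ± 6.25 CPM in KD and 20.7 ± 4.79 CPM in chow (0.53, adjusted p = 0.561). Ccr1l1 and Cxcr1 had no counts in any of the 8 libraries, which at this depth shows no difference either way. The median log2 fold change of the 10 tested genes was 0.16.

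The sorted cells held little RNA for most ligands of the 8 receptors. Of 17 ligand genes 10 were tested and 0 called by edgeR, DESeq2 or limma. In edgeR 1 had an unadjusted p under 0.05, where 8.63% of all tested genes had such a p. The median log2 fold change of the 10 was 0.81, against 0.0034 over all tested genes. The 6 ligands with a positive value had mean levels of no more than 6.39 CPM, whereas Ccl5 and Cxcl10, the most abundant, had negative ones. The gene with an unadjusted p under 0.05 was Cxcl10, a CXCR3 ligand, at 46.3 ± 14.8 CPM in KD and 86.6 ± 25.9 CPM in chow (log2 fold change -0.90, SE 0.29, adjusted p = 0.357 by edgeR). Ccl7, a CCR2 ligand (1.35 ± 0.882 CPM in KD and 0.149 ± 0.298 CPM in chow, adjusted p = 0.634), and Cxcl16, the CXCR6 ligand (2.72 ± 1.90 CPM in KD and 0.412 ± 0.476 CPM in chow, adjusted p = 0.649), followed by p. Ccl20, the ligand of CCR6, had 0 counts in the 4 KD libraries and 47 in the chow libraries together. Ccl5, which binds CCR1, was the most abundant at 235 ± 37.7 CPM in KD and 245 ± 18.7 CPM in chow. Ccl20 and Ccl5 were singled out after their values were seen.

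Of 44 genes for signalling and desensitisation downstream of the receptors, all were tested, 1 rose, 0 fell and 43 did not pass, with a median log2 fold change of 0.0012. Over all 13397 tested genes edgeR called 0.508%, 0.328% higher and 0.179% lower. The gene that rose was Rasgrp2, which encodes a calcium- and diacylglycerol-regulated exchange factor that activates Rap1 in integrin adhesion. It had 85.7, 45.3, 62.0 and 67.4 CPM in KD replicates 1 to 4 and 31.97, 18.7, 24.7 and 19.2 CPM in chow replicates 1 to 4, with no overlap. The log2 fold change was 1.46 (SE 0.23, adjusted p = 0.0285 by edgeR). The call was kept without KD replicate 2 (adjusted p = 0.0404) or chow replicate 1 (adjusted p = 0.0269) and lost without any of the other samples. Without KD replicates 1, 3 and 4 in turn it had adjusted p = 0.0832, 0.0953 and 0.0967, and without chow replicates 2, 3 and 4 adjusted p = 0.0969, 0.107 and 0.11. Of its 12384 exonic bases, 265 are shared with the predicted gene Gm14965 on the other strand, and reads there cannot be told apart without strand information. Over the 19 alternatives its adjusted p ran from 8.08e-07 to 0.335. Chosen after their values were seen, the Gi subunit gene Gnai2 stood at 1266 ± 57.4 CPM in KD and 1199 ± 42.9 CPM in chow, and the arrestin gene Arrb2 at 157 ± 15.4 CPM in KD and 171 ± 15.7 CPM in chow.

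Of the 8 receptors, 4 lie on chromosome 9, and 3 of these belong to a run of 7 receptor genes within 435.1 kb, from Ccr9 to Ccr2. Neighbours in this run differed widely in level. Xcr1 starts 55.5 kb from Cxcr6 and had 6.84 ± 1.42 FPKM in KD and 4.71 ± 1.04 FPKM in chow, against the 1879 and 1860 FPKM of Cxcr6. Ccr1l1 and Ccr3 lie between Ccr1 and Ccr2. Ccr1l1 was listed at 0, and Ccr3 reached 0.490 FPKM in KD and was at 0 in chow. The diet differences along the run had both signs, since Ccr1 and Xcr1 had positive values and Ccr9 a negative one.

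**Figure D4:**
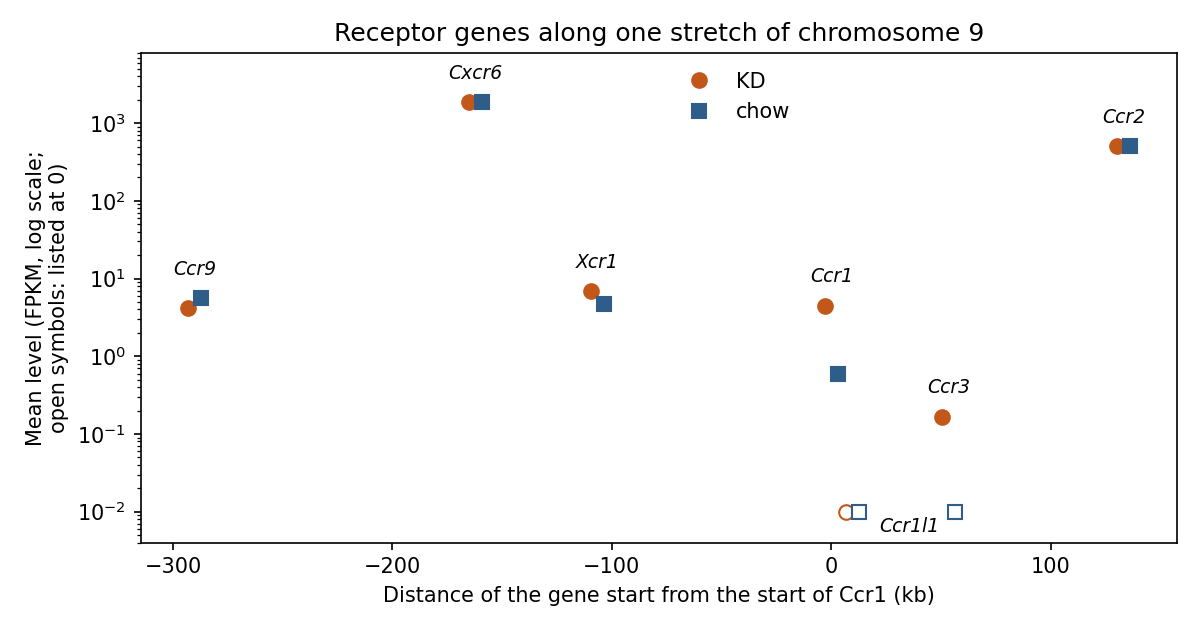
Mean FPKM (log scale) of the 7 receptor genes in the chromosome 9 run, plotted by the distance of their starts from that of Ccr1, with KD as circles and chow as squares set slightly apart. Cxcr6 and Ccr2 stand far above their neighbours, and open symbols mark genes listed at 0.

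The profiles nearest to that of Ccr6 were sought by the root mean square difference of log2 CPM over the 8 samples, after each gene's own mean was subtracted. The nearest was Lgals3, which encodes the lectin galectin-3, at a difference of 0.197. It had 177, 102, 103 and 99.99 CPM in KD replicates 1 to 4 and 37.0, 33.1, 21.0 and 32.6 CPM in chow replicates 1 to 4, and like Ccr6 it was highest in KD replicate 1 and lowest in chow replicate 3. Cryba4, a crystallin gene, followed at 0.270, then Acsbg1, a long-chain acyl-CoA synthetase gene, at 0.285. Rasgrp2 (0.323), Dtx1, which encodes the Notch pathway ubiquitin ligase Deltex-1 (0.326), and Rom1, a photoreceptor disc membrane protein gene (0.360), complete the 6. A gene with a like diet difference is near by construction, and all 6 were themselves called higher in KD. The log2 fold changes of the 6 ran from 1.46 to 2.07. For Ccr1 the nearest genes were Gpr146, a G protein-coupled receptor gene (0.542), and Sdc3, which encodes syndecan-3 (0.942), for Ccr7 they were Plpp5, a lipid phosphatase gene (0.231), and Dgka, a diacylglycerol kinase gene (0.248), and for Ccr8 they were Jarid2, a Polycomb cofactor gene (0.216), and Vav3, a Rac exchange factor gene (0.219).

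**Figure D5:**
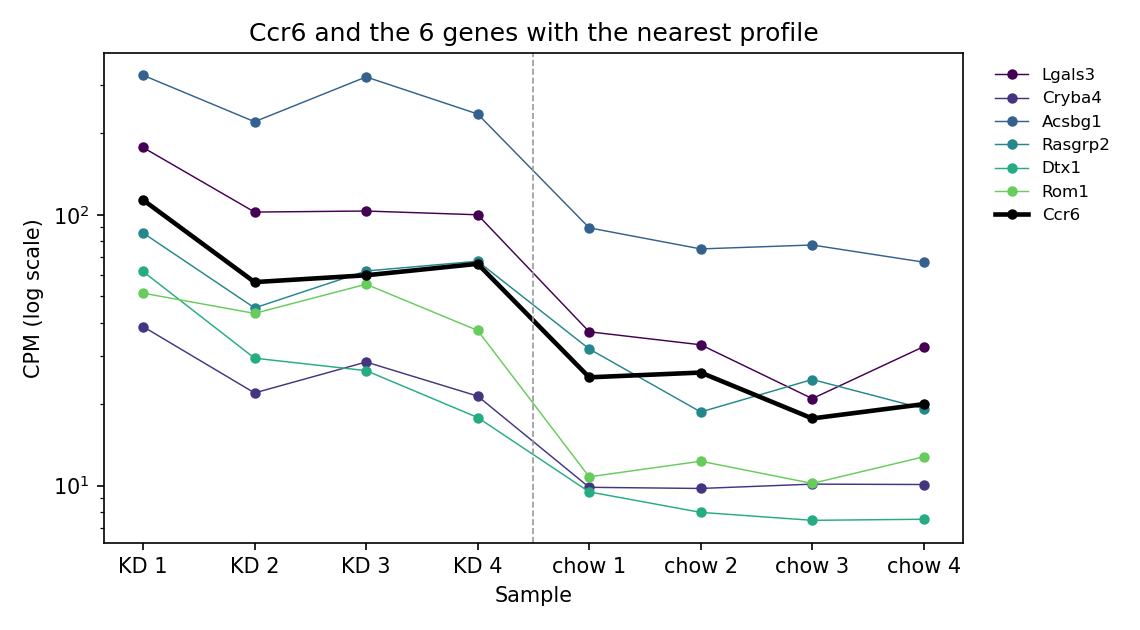
Level in CPM (log scale) of Ccr6 (thick black) and the 6 genes nearest to it, in KD replicates 1 to 4 left of the dashed line and chow replicates 1 to 4 right of it. Lines only join the points of 1 gene, and each gene is higher in all KD samples than in any chow sample.

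Genes of the cell states that CCR6 and CXCR3 mark had smaller diet differences than Ccr6, and 0 of them were called by edgeR. DESeq2 called 2 of the IL-17 list higher (Il17a and Blk), and of the interferon-γ list 1 higher (Klrk1) and 2 lower (Tbx21 and Il12rb2). Limma called Klrk1 alone, and these names were taken from the calls. Over all genes edgeR called 0.508%, DESeq2 3.04%, and limma 1.15% with 1 added to the FPKM and 1.03% with 0.1 added. Il17a had 105 ± 34.4 CPM in KD and 57.8 ± 10.8 CPM in chow (0.86, SE 0.23, adjusted p = 0.223), and the IL-23 receptor gene Il23r 230 ± 5.52 CPM in KD and 245 ± 32.9 CPM in chow (-0.10, SE 0.10, adjusted p = 0.875). In samples, Il17a was highest in KD replicates 3 and 4 (128 and 140 CPM), not in KD replicate 1 (80.7 CPM), where Ccr6 was highest. Tbx21, which encodes T-bet, had 248 ± 40.4 CPM in KD and 363 ± 71.0 CPM in chow (-0.55, SE 0.16, adjusted p = 0.249). As for Cxcr3, KD replicates 3 and 4 had the least Tbx21 (224 and 211 CPM) and chow replicate 4 the most (422 CPM). Ifng stood at 25.1 ± 4.59 CPM in KD and 37.1 ± 11.3 CPM in chow (-0.57, adjusted p = 0.538). Cd27, a marker of interferon-γ-producing γδ T cells, stood at 41.2 ± 8.12 CPM in KD and 44.3 ± 7.27 CPM in chow (-0.11, adjusted p = 0.94). Of 11 genes of the IL-17 state 5 had an unadjusted p under 0.05, all higher in KD, against 8.63% of all tested genes in both directions together. Of 10 genes of the interferon-γ state 4 did, 1 higher and 3 lower. The median log2 fold change was 0.26 for the 11 and 0.039 for the 10, against 0.0034 over all tested genes.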

How the data were processed

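RNA of 8 sorted γδ T cell samples was used, 4 per diet. Deposited by the authors were 2 gene tables, 1 of estimated counts (not all whole) and 1 of FPKM values. The submitters' processing notes name BWA, TopHat2, RSEM and DESeq2 and the build GRCm38, without roles or versions, and read length and strand setting are not given in the sources used here. Columns were matched to samples by title, no 2 samples held identical counts, and 27 gene symbols that had become dates were restored by gene ID.

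Counts were rounded, filtered with filterByExpr (minimum count 10, minimum total 15) and TMM-scaled, and KD was compared with chow across 13397 genes by edgeR's quasi-likelihood test (robust, two-sided, diet as only term, Benjamini-Hochberg, threshold 0.05) with edgeR 4.0.16 under R 4.3.3; DESeq2 1.42.0 and limma 3.58.1 served as alternatives. The script was tested on simulated data. Each SE is the absolute log2 fold change over the root of F. CPM values use TMM-scaled totals, and log2 CPM a prior count of 2. A floor of 3 counts is 0.0947 to 0.151 CPM per library and covers counting error only.

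The receptors and gene lists were chosen with earlier results of these data known. Named were the 8 receptors, genes called in a list or else its 3 smallest p, the 6 genes nearest to Ccr6, 2 for each other receptor with an SD of log2 CPM above 0.5 (predicted genes left out), cell state genes and defining markers. Some genes that the rule or the lists hold are not reported here, though counts over lists include them. A gene outside this rule is named as chosen afterwards or for its place in the chromosome 9 run. Positions are from GENCODE release M21 (GRCm38) and start sequences from RefSeq. Alternatives were another scaling, no filter, DESeq2, limma on log2 of FPKM plus 1 or 0.1 (FPKM of at least 1 in 4 samples), marker covariates, a replicate block and leaving out samples. Each marker covariate was the mean log2 CPM of its marker list.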

Additional observations from a re-analysis of the deposited data

Results flagged for a closer look

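Ccr6 in KD replicate 1 lay far from the other KD samples, at 113 CPM. Its gap to the next sample was 0.834 of the range of the 4 KD values, where the critical value is 0.829. Chance flags about 1 in 20 groups, and 16 groups (8 receptors on 2 diets) were examined. Without KD replicate 1 the log2 fold change of Ccr6 was 1.45 (adjusted p = 0.0242 by edgeR). The same sample had the most Ccr7 (61.9 CPM), Ccr1 (17.7 CPM) and Lgals3 (177 CPM) and the least Ccr8 (4.14 CPM) of all 8.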

How the results depend on the processing

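The main fit called 68 genes, 1 of the 8 receptors, 0 of the other receptors and 1 signalling gene. Calls over all genes were 12 with a replicate block, 470 with DESeq2, 134 and 120 with limma on log2 of FPKM plus 1 and plus 0.1, 13, 39 and 33 with the stromal, macrophage and B cell covariates, 4 without KD replicates 3 and 4, and 12 to 44 without single samples. Receptors called were 0 with the block and without KD replicates 3 and 4, 2 with DESeq2 (Ccr6 and Cxcr3) and with limma on log2 of FPKM plus 1 (Ccr6 and Ccr1, adjusted p = 0.0285), and 0 to 1 without single samples. Other receptors called were 1 with no filter, DESeq2 and both limma fits, and 0 to 1 without single samples. Signalling genes called were 0 with the B cell covariate and without KD replicates 3 and 4, and 0 to 1 without single samples. Ccr6 stayed positive in all 19 alternatives, from 1.45 to 2.36, and was called in 14. It was 1.69 with the replicate block (adjusted p = 0.0572), 1.93 without KD replicates 3 and 4 (adjusted p = 0.169), and 1.45 to 1.84 without single samples. Same-numbered samples did not deviate together (r = -0.114 to 0.0535 in 4 pairs), and 0 of 8 samples correlated best with their own number, so the pairing rests on numbers alone. Small values changed sign. Cxcr6 was -0.00049 with no filter, -0.054 and -0.019 with the stromal and macrophage covariates, -0.0084 without KD replicates 3 and 4, and -0.033 to 0.056 without single samples. Ccr2 was -0.14 and -0.014 with these covariates and -0.014 to 0.056 without single samples. Cxcr4 was -0.046 with the stromal covariate and -0.21 without KD replicates 3 and 4. The cause was not tested. The place of Ccr6 among the receptors (4 in KD, 5 in chow) held in all 5 alternatives for each diet. The spread between samples limits what can be said of Ccr1 in chow, where replicates 1 to 4 held 107, 1, 1 and 61 counts.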
